A study of Mus musculus with 6 samples.

Results

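The myogenic regulatory factors described here are 9 transcription factor genes, chosen by symbol: Pax7, Myf5, Myod1, Myog, Myf6, Mef2a, Mef2c, Mef2d and Six4. All 9 were found among the 47069 genes of the count table, and all 9 passed the filter on low counts that left 14165 genes for testing. They were measured by RNA-seq of polyadenylated RNA in cultured mdx cells, labeled muscle stem cells in the sample records and called myoblasts by the study. Cells of mdx mice lack dystrophin and model Duchenne muscular dystrophy. The cells received 10 μM PSB-KD107, a small molecule that activates Gpr18, the receptor of the lipid mediator resolvin-D2, or its vehicle, DMSO diluted in an aqueous buffer, with 3 libraries per group. The comparison addresses how the agonist affects the myoblast transcriptome.

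Both groups came from mdx mice and were sorted as negative for Sca-1, CD45, CD31 and CD11b and positive for Itgb1 and Itga7. For sorted mdx myoblasts the study describes Ham's F-10 with 20% serum and FGF2, a growth medium, and a separate low-serum medium for differentiation. Its account of the RNA-seq does not name the medium, so the medium of these libraries is uncertain. The sample records give 2 days of treatment, whereas the methods of the study describe an overnight one, so the time is uncertain. The mdx mice of the study were male C57BL/10 animals of 10 weeks, and whether this holds for the mice that gave these cells is not stated in the sources used here. The cultures are sorted primary cells from 3 mice, so that mature fibers and the other cells of muscle were not selected. Differentiated muscle cells formed in culture after the sort are not excluded by it. Libraries are called 1, 2 and 4 within a group, after the columns of the count table.

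In muscle stem cells, Pax7 marks and maintains the stem cell state, and Six4, a homeodomain protein, acts with EYA cofactors upstream of the MyoD family. The MyoD family consists of Myf5 and Myod1, which commit cells to the muscle lineage, and Myog and Myf6, which drive differentiation. These factors bind E-boxes as dimers with E proteins, and MEF2 proteins cooperate with them at the promoters of contractile protein genes.

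Depth was 30917613 to 48756794 counts per library, and 3 counts correspond to 0.0596 to 0.0962 CPM, counts scaled by the normalized library total to a common size, which covers counting error only. Spearman correlations between libraries of a group were 0.9673 to 0.9959 for vehicle and 0.9523 to 0.9753 for PSB-KD107. In vehicle, library 1 had the lower correlations, 0.9762 with library 2 and 0.9673 with library 4, against 0.9959 between libraries 2 and 4. In PSB-KD107, library 4 had the lower ones, 0.9577 with library 1 and 0.9523 with library 2, against 0.9753 between libraries 1 and 2. The library numbered 1 of each group stood apart from its group for several of the factors, and PSB-KD107 library 4 for Myf6, some surface genes and others, as given below. Of markers of other cells, Lum, Emcn, Adgre1 and Plin1 were at 0 counts in all 6 libraries. The summed level of 8 fibroblast and fibro-adipogenic markers was 152.2 to 397.2 CPM in vehicle against 64.5 to 326.4 CPM in PSB-KD107, with 5 of the 8 under 1 CPM in every library. Most of it was Col3a1, at 394.7, 152.8 and 151.2 CPM in vehicle libraries 1, 2 and 4 and 99.7, 63.0 and 316.5 CPM in PSB-KD107. Ly6a, the gene of the negative sorting marker Sca-1, was at 1.25, 0.344 and 0.155 CPM in vehicle and 1.29, 0.417 and 8.36 CPM in PSB-KD107. It was thus highest in PSB-KD107 library 4. The mural list summed to 71.2 to 103.3 CPM in vehicle against 36.3 to 92.6 CPM in PSB-KD107, with 2 of its 5 genes under 1 CPM throughout. Most of this sum was Abcc9, at 91.2, 77.3 and 64.4 CPM in vehicle and 86.3, 68.8 and 22.6 CPM in PSB-KD107. The sum is therefore mainly that of a single gene. The endothelial list (led by Vwf, 5 of 6 genes under 1 CPM) reached at most 9.12 CPM, the leukocyte list (Itgam, 5 of 6) 4.36 CPM and the adipocyte list (Lep, 4 of 4) 0.0642 CPM. These ranges overlapped between the groups for each of these lists, and their part in the results below was not tested.

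Myog and Myod1 stood far above the other 7 factors in both groups. Levels are compared between genes per length, as FPKM, which is CPM per kilobase of exonic length. In vehicle, Myog stood highest at 1428 ± 55.4 FPKM (SD, n = 3), rank 12 of 14123 genes, and Myod1 followed at 453.4 ± 155.4 FPKM, rank 56. The 3 MEF2 genes formed the next step, with Mef2a at 70.5 ± 13.9, Mef2c at 62.0 ± 23.0 and Mef2d at 61.3 ± 4.24 FPKM, and their ranges over libraries overlapped. The lowest step held Pax7 at 10.2 ± 1.62, Myf6 at 7.71 ± 2.02, Myf5 at 6.95 ± 4.58 and Six4 at 6.95 ± 2.36 FPKM, and neighbors within it overlapped as well. Only the steps from Myog to Myod1, from Myod1 to Mef2a and from Mef2d to Pax7 had no overlap between neighbors. Myh3, the embryonic myosin heavy chain and a differentiation gene, stood at rank 5 with 2938 FPKM in vehicle. Pax7 stood at rank 4473, so the label muscle stem cells is not read here as a stem cell state. How far the cultures had differentiated was not tested.

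In PSB-KD107 the same 3 steps were seen, with Myog at 1017 ± 201.5 FPKM, Myod1 at 302.0 ± 100.1 FPKM and the 3 MEF2 genes between 52.2 ± 10.8 and 61.8 ± 24.6 FPKM. Within the lowest step the order of the means was Myf6 at 15 ± 12.1, Myf5 at 11.5 ± 8.88, Pax7 at 5.45 ± 0.776 and Six4 at 4.24 ± 1.48 FPKM, and neighbors again overlapped. Of the summed FPKM of the MyoD family, Myog held 71.1% to 82.7% in every library, and Myf5 and Myf6 each held at most 1.98%.

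**Figure D1:**
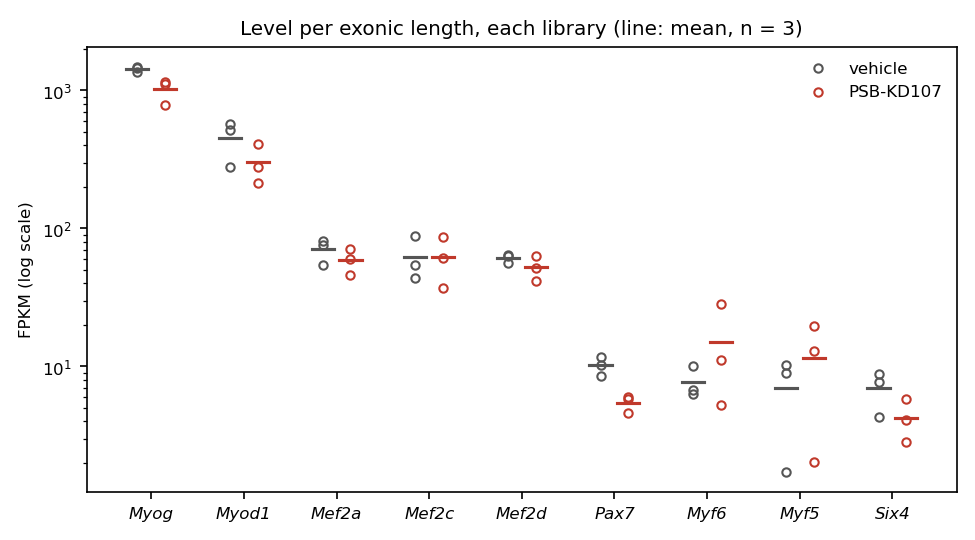
FPKM of the 9 factors (log axis) in each of the 6 libraries, with circles for libraries and a line for the mean of 3. Myog and Myod1 stand above the MEF2 genes, and Pax7, Myf6, Myf5 and Six4 lie lowest and overlap each other.

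Against vehicle, 7 of the 9 factors had a lower estimate in PSB-KD107 and 2, Myf5 and Myf6, a higher one. Of all genes tested, 50.1% had a lower estimate. In edgeR's quasi-likelihood test, with p-values adjusted by Benjamini-Hochberg over the whole table, none of the 9 passed an adjusted p of 0.05, and neither did any other gene (0.0% of all genes). At an unadjusted p under 0.05, 2 of the 9 were lower, Pax7 and Myog, where 2.93% of all genes were lower, 6.47% higher and 9.4% passed in either direction. The same 2 factors were the ones whose libraries did not overlap between groups, against 15.8% of all genes in either direction, 6.59% in the lower and 9.2% in the higher one. DESeq2 called 1 factor, Pax7, at an adjusted p under 0.05, where it called 3.56% of genes in either direction, 0.982% as lower and 2.58% as higher. The edgeR and DESeq2 p-values weigh the difference between the groups against the spread between these libraries. Neither fit had a term for the mouse, so differences between mice enter that spread. In bulk RNA, fewer cells that express a factor and less of its RNA per cell cannot be told apart.

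Pax7 was the factor with the smallest p. The gene (ENSMUSG00000028736) spans chr4:139737062-139833528 on the minus strand of GRCm38 (mm10). Its level was 68.8, 49.9 and 60.0 CPM in vehicle libraries 1, 2 and 4, and 34.0, 26.8 and 35.1 CPM in PSB-KD107 libraries 1, 2 and 4. Every PSB-KD107 library lay below every vehicle library, and the groups were about equally tight relative to their means. The mean was 59.5 ± 9.47 CPM in vehicle against 32.0 ± 4.55 CPM in PSB-KD107 (SD, n = 3). The log2 fold change was -0.90 with an SE of 0.17 and a 95% interval of -1.31 to -0.49, which is 53.7% of the vehicle level. edgeR gave an unadjusted p of 0.00164 and an adjusted p of 0.209, and DESeq2 gave an adjusted p of 0.000639. The two-sided exact permutation p was 0.1, the smallest that 3 libraries against 3 allow. When single libraries were omitted, the log2 fold change stayed between -1.02 and -0.79, and DESeq2 called Pax7 each time, with adjusted p-values of 0.00066 to 0.039.

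Six4 (ENSMUSG00000034460, chr12:73099609-73113456, minus strand) was at 46.8, 83.4 and 96.1 CPM in vehicle and 30.7, 62.7 and 44.7 CPM in PSB-KD107, in the order of libraries 1, 2 and 4. The groups overlapped, and library 1 was the lowest of its group in both. Between libraries of the same number, the log2 ratio of CPM (each plus 0.1) was -0.61, -0.41 and -1.1. Whether equal numbers mark the same mouse is not stated in the sources used here. The log2 fold change was -0.71 with an SE of 0.35 and a 95% interval of -1.57 to 0.14, and edgeR's adjusted p was 0.611. Without vehicle library 1 the log2 fold change was -0.97 and without PSB-KD107 library 2 it was -1.01, both past the unadjusted threshold in edgeR, whereas it was -0.51 without PSB-KD107 library 1.

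The 4 MyoD family genes differed in direction, with lower estimates for Myod1 and Myog and higher ones for Myf5 and Myf6. Myod1 (ENSMUSG00000009471, chr7:46376474-46379099, plus strand) had 515.2, 955.8 and 1060 CPM in vehicle libraries 1, 2 and 4, and 398.7, 764.7 and 522.6 CPM in PSB-KD107. Library 1 was again the lowest in each group and the groups overlapped. Between libraries of the same number, the log2 ratio of CPM was -0.37, -0.32 and -1.02. The log2 fold change was -0.59 with an SE of 0.35 and a 95% interval of -1.43 to 0.26 (edgeR adjusted p = 0.665). It was -0.85 without vehicle library 1 and -0.88 without PSB-KD107 library 2, both past the unadjusted threshold in edgeR, and -0.41 without PSB-KD107 library 1.

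Myog, the gene with the highest level of the set, had 2042, 2203 and 2158 CPM in vehicle libraries 1, 2 and 4, and 1175, 1726 and 1661 CPM in PSB-KD107. It lies at chr1:134289989-134292548 on the plus strand (ENSMUSG00000026459). The vehicle libraries were close together, all PSB-KD107 libraries lay below them, and PSB-KD107 library 1 was the lowest. The mean was 2134 ± 82.8 CPM in vehicle against 1521 ± 301.3 CPM in PSB-KD107 (SD, n = 3). The log2 fold change was -0.49 with an SE of 0.18 and a 95% interval of -0.92 to -0.06, 71.2% of the vehicle level. edgeR gave an unadjusted p of 0.0309 and an adjusted p of 0.469, DESeq2 gave an adjusted p of 0.119, and the exact permutation p was 0.1. Leaving out single libraries moved the log2 fold change between -0.60 and -0.35. The unadjusted edgeR p was then 0.051 without vehicle library 1, 0.0863 without vehicle library 2 and 0.0781 without vehicle library 4, and 0.0238 to 0.0426 without a PSB-KD107 library.

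The start of Myog is shown because it holds both letter motifs found among the promoters of the set, the E-box of the MyoD family and the MEF3 site. It runs from chr1:134289754 to chr1:134289988 on the plus strand (RefSeq promoter table, GRCm38.p6), with an E-box and the MEF3 letters, the sequence bound by proteins of the Six4 family, in capitals.
Myog promoter: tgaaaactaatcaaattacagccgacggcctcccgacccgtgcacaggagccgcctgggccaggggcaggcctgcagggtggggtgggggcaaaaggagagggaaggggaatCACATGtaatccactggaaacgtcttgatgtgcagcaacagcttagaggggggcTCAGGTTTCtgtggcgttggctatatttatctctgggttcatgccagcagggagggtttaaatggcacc
This E-box starts 138 bases and the MEF3 match 84 bases before the RefSeq start. A second E-box, 12 bases before that start, lies past the GENCODE start and outside the stretch printed. The letters searched were CANNTG for the E-box and TCAGGTTTC for MEF3, on both strands of the 250 bases before each start. Among 32817 promoters, 66.2% held the E-box and 0.387% the MEF3 letters. RefSeq had 10 promoter entries for 7 of the 9 factors, and Myod1 and Myf6 had none. An E-box was found in 3 of the 10 entries and MEF3 letters in 2, those of Myog and Six4. The MEF2 consensus was searched as YTAWWWWTAR (Y for C or T, W for A or T, R for A or G). A full match was in none of the 10 and in 2.92% of all promoters. The printed Myog stretch holds ctatatttat, which differs from this pattern at its last base only, so a looser search would have counted it. The MEF3 match of Six4 stands 99 bases before the RefSeq start, within the GENCODE gene body, at chr12:73113326-73113354 with the match in capitals, reading on the minus strand.
Six4 site: tggcctggggGAAACCTGAtcggccagat
These matches are descriptions of letters and say nothing about binding in these cells.

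Myf5 and Myf6 lie side by side on the minus strand of chromosome 10, with 6718 bases between them, and both varied widely between libraries. Myf5 (ENSMUSG00000000435, chr10:107482908-107486134) was at 3.57, 18.6 and 21.3 CPM in vehicle libraries 1, 2 and 4, and at 4.23, 40.9 and 26.8 CPM in PSB-KD107. Library 1 was far below the other libraries of its group in both conditions, and the highest library exceeded the lowest 5.96-fold in vehicle and 9.66-fold in PSB-KD107. The log2 fold change was 0.73 with an SE of 0.92 and a 95% interval of -1.52 to 2.97 (edgeR adjusted p = 0.838), so a difference of this size was not detectable against that spread. It was 0.09 to 1.21 with single libraries left out. The log2 ratio between libraries of the same number was 0.24, 1.13 and 0.33 for numbers 1, 2 and 4, each higher in PSB-KD107.

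Myf6 (ENSMUSG00000035923, chr10:107492853-107494737) was at 8.01, 12.7 and 8.53 CPM in vehicle and at 6.60, 14.1 and 35.9 CPM in PSB-KD107 libraries 1, 2 and 4. PSB-KD107 library 4 stood above all others, and the other 5 libraries overlapped. The log2 fold change was 0.96 with an SE of 0.60 and a 95% interval of -0.51 to 2.42 (edgeR adjusted p = 0.679). Without PSB-KD107 library 4 it was 0.09, so that the higher mean rested on this library. Without PSB-KD107 library 1, the lowest, it was 1.35 with an unadjusted edgeR p of 0.0273.

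**Figure D2:**
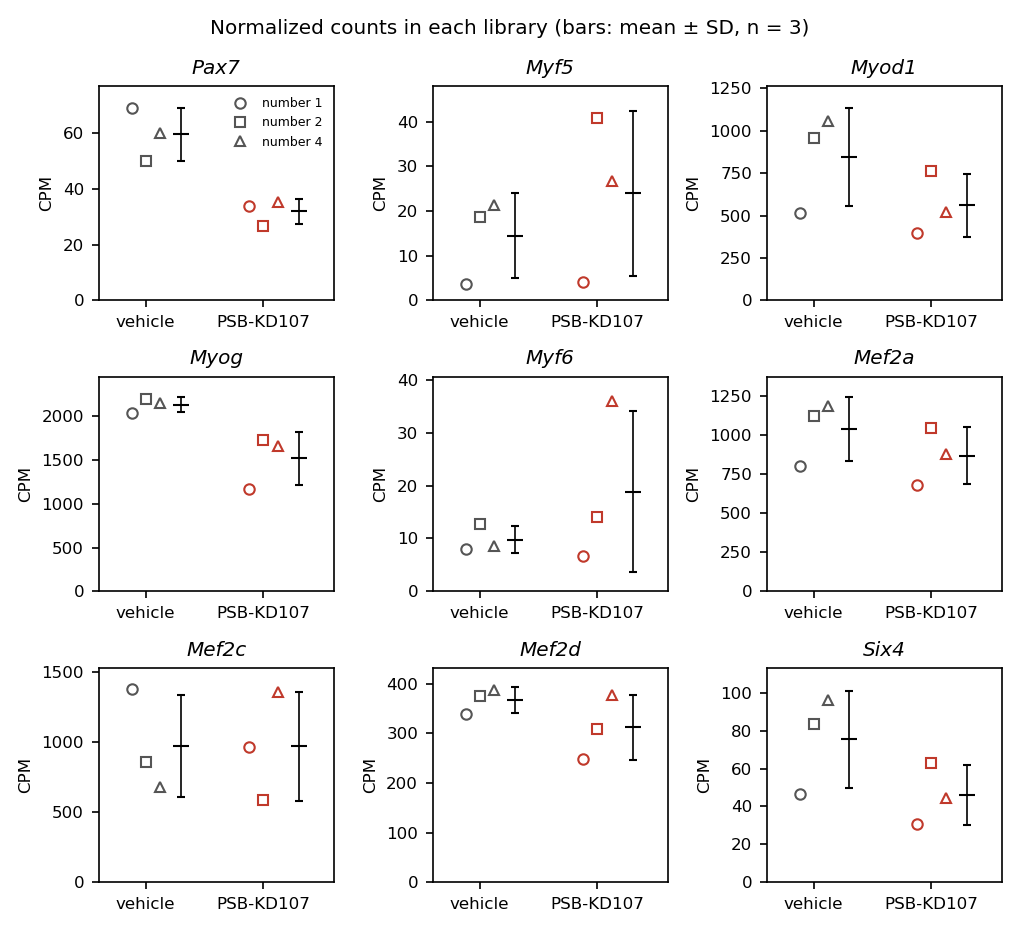
CPM of each factor in the 3 vehicle and 3 PSB-KD107 libraries, with a marker shape for each library number and bars for the mean ± SD. Pax7 and Myog are the panels in which the groups do not overlap. Library 1 lies lowest in both groups for 7 factors, all but Pax7 and Mef2c.

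The 3 MEF2 genes had the smallest differences of the set. Mef2a (ENSMUSG00000030557, chr7:67231163-67372858, minus strand) was at 802.0, 1121 and 1183 CPM in vehicle and 678.4, 1041 and 878.6 CPM in PSB-KD107 libraries 1, 2 and 4. The groups overlapped, library 1 was lowest in each, and the log2 fold change was -0.26 with a 95% interval of -0.79 to 0.28. Its log2 ratio between libraries of the same number was -0.24, -0.11 and -0.43. Mef2d (ENSMUSG00000001419, chr3:88142372-88172086, plus strand) was at 338.5, 376.4 and 386.7 CPM in vehicle and 248.5, 309.9 and 378.3 CPM in PSB-KD107. These groups overlapped as well, with a log2 fold change of -0.23 and a 95% interval of -0.64 to 0.18. Without PSB-KD107 library 4, its highest, the log2 fold change of Mef2d was -0.40, past the unadjusted threshold in edgeR. Mef2d shares 531 bases, 8.872% of its exonic length, with an antisense gene, 1700113A16Rik, and Mef2a shares 2.057% with Lysmd4 on the opposite strand, so that reads there are uncertain where strand was not used in counting.

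Mef2c (ENSMUSG00000005583, chr13:83504034-83667080, plus strand) was at 1378, 860.4 and 683.4 CPM in vehicle libraries 1, 2 and 4, and at 964.6, 586.3 and 1361 CPM in PSB-KD107. The means were almost equal, at 973.9 ± 360.9 and 970.6 ± 387.3 CPM (SD, n = 3), but the libraries spread widely within both groups. Vehicle library 1 and PSB-KD107 library 4 were the high ones. The 95% interval of the log2 fold change, -0.93 to 0.92, covers differences in either direction, and the estimate was -0.33 to 0.33 with single libraries left out. Of the summed FPKM of the MEF2 genes, Mef2c held 44.1%, 28.2% and 23.0% in vehicle and 41.2%, 23.3% and 41.3% in PSB-KD107. Mef2b, the remaining MEF2 gene, had no count in any library, which allows up to 3 counts per library.

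**Figure D3:**
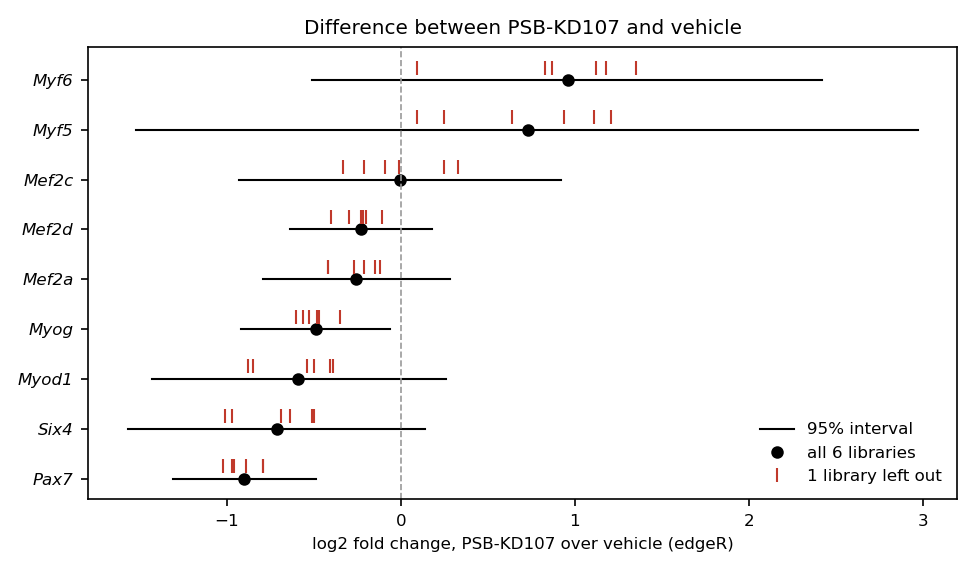
Log2 fold change of PSB-KD107 over vehicle for each factor from edgeR (points) with its 95% interval (lines), and the estimates with 1 library left out (ticks). The intervals of Pax7 (-1.31 to -0.49) and Myog (-0.92 to -0.06) lie below 0, and those of the other factors include 0.

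Ratios of counts within a library do not depend on library scaling, and for none of the 3 examined was a difference detectable, where 3 libraries against 3 cannot give an exact p under 0.1. Myog exceeded Pax7 29.7-fold, 44.2-fold and 36.0-fold in vehicle and 34.5-fold, 64.5-fold and 47.3-fold in PSB-KD107, with counts not divided by length. The difference of the log2 ratio was 0.39 (exact permutation p = 0.3, adjusted over 3 ratios 0.45), with overlapping groups. The log2 ratio of Myog to Myod1 differed by 0.06 (exact permutation p = 0.9, adjusted 0.9). Myod1 exceeded Myf5 143.7-fold, 51.4-fold and 49.8-fold in vehicle and 94.0-fold, 18.7-fold and 19.5-fold in PSB-KD107, a difference of -1.14 on the log2 scale (exact permutation p = 0.3, adjusted 0.45). Library 1 had the highest ratio of Myod1 to Myf5 in both groups.

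The genes whose pattern over the 6 libraries was most like that of Pax7 were A730056A06Rik, Adam12, Cnot3 and Ccdc102a, with Pearson correlations of log2 CPM of 0.995, 0.994, 0.990 and 0.989 among 12273 genes ranked. Adam12, a membrane metalloprotease, was at 15.3, 8.13 and 9.90 CPM in vehicle and 3.52, 2.12 and 3.27 CPM in PSB-KD107. For Myog they were Runx1, Apbb1, Rbm38 and Ptrf, at 0.992, 0.991, 0.990 and 0.989. Runx1, a transcription factor, was at 272.1, 282.9 and 279.0 CPM in vehicle and 194.4, 236.8 and 230.2 CPM in PSB-KD107. The correlations describe 6 libraries in 2 treatment groups, so that a difference between the groups enters them, and 101 genes correlated above 0.9 with Pax7 and 170 with Myog.

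The genes around the factors were read as 5 lists, none of which held a gene with an adjusted edgeR p under 0.05. The median log2 fold change of all genes was -0.001, that of the 9 factors -0.26. Groups did not overlap for 15.8% of all genes, the share to set beside each such gene below. In the network of Pax7, Six4 and the EYA cofactors, 13 of 16 genes were tested, with a median of -0.26. At an unadjusted p under 0.05, 2 were lower and 1 higher (2.93% and 6.47% of all genes). Eya1, a cofactor of Six4, was at 7.70, 3.90 and 3.07 CPM in vehicle and 23.7, 8.66 and 12.4 CPM in PSB-KD107. It had no overlap and a log2 fold change of 1.61 with an SE of 0.51 (edgeR adjusted p = 0.414), opposite in direction to Six4. Pitx3 (-0.58) and Six5 (-0.61) were the lower ones. The estimate of Dach1 (0.69) did not pass.

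Among partners and inhibitors of the MyoD family, 17 of 20 genes were tested, with a median of 0.13. At an unadjusted p under 0.05, 0 were lower and 1 higher (2.93% and 6.47% of all genes). Bhlhe41, a repressor that restrains MyoD activity, was at 97.4, 97.2 and 89.3 CPM in vehicle and 111.2, 129.0 and 135.0 CPM in PSB-KD107. Its groups did not overlap, its log2 fold change was 0.40 with an SE of 0.11, and its adjusted p was 0.326 in edgeR and 0.0455 in DESeq2. The related Bhlhe40 had 53.6, 19.0 and 8.34 CPM in vehicle and 116.7, 38.4 and 146.9 CPM in PSB-KD107, a log2 fold change of 1.90 with an SE of 0.78 that did not pass. With single libraries left out it was 1.47 to 2.88, past the unadjusted threshold without vehicle library 1 (2.88) and without PSB-KD107 library 2 (2.28). Tcf3, which encodes some of the E protein partners, had -0.24, and Id2 and Id4, inhibitors that sequester E proteins, had 0.88 and 0.49, all short of the threshold.

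Of the MEF2 cofactors and regulators, 22 of 23 were tested, with a median of -0.07. At an unadjusted p under 0.05, 1 was lower and 1 higher (2.93% and 6.47% of all genes). Hdac7, a class IIa histone deacetylase that represses MEF2, was the lower one, at 34.2, 22.1 and 24.3 CPM in vehicle and 17.6, 19.1 and 13.6 CPM in PSB-KD107 (log2 fold change -0.68, SE 0.22). Kat2b, an acetyltransferase that acts with MyoD and MEF2, was the higher one, with a log2 fold change of 0.34 and an SE of 0.12. Neither pair of groups overlapped. Camk2d (0.40), the kinase gene Mapk14 (0.31) and the chromatin remodeling subunit gene Smarcd3 (-0.23) did not pass.

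The surface genes of satellite cells and myoblasts had 15 of 17 tested, with a median of -0.08. None was past the unadjusted threshold (9.4% of all genes) and none had non-overlapping groups (15.8% of all genes). The sorting marker Itga7 was at 958.9, 1123 and 1041 CPM in vehicle and 798.9, 1006 and 1094 CPM in PSB-KD107, and Itgb1 had a log2 fold change of 0.30. Cdh15, the cadherin of myoblasts, had -0.42, Met -0.44, Fgfr4 -0.94 and Cxcr4 -1.16, all with overlapping groups. These estimates depended on single libraries. Cxcr4 was -1.74 and Fgfr4 -1.52 without PSB-KD107 library 2, and -0.88 and -0.60 without PSB-KD107 library 4. Cxcr4 was -1.46 and Met -0.73 without vehicle library 1, and Cxcr4, Fgfr4 and Met were past the unadjusted threshold in edgeR at the values without PSB-KD107 library 2 or vehicle library 1 given here. Cdh15 was -0.87 without PSB-KD107 library 2 and -0.20 without vehicle library 4, and Itgb1 was at -7.8e-05 without PSB-KD107 library 4. Calcr and Chodl, markers of quiescent satellite cells, did not pass the filter, with at most 0.385 CPM in any library.

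Of the differentiation targets of the factors, all 36 were tested, with 22 lower estimates, 14 higher ones and a median of -0.09. At an unadjusted p under 0.05, 4 were lower and 1 higher (2.93% and 6.47% of all genes), and 8 were non-overlapping and lower (6.59% of all genes). The genes named next are those with the smallest p and do not stand for the whole list. Actc1, the cardiac actin of early muscle, was at 6395, 5167 and 5801 CPM in vehicle and 3335, 3578 and 4540 CPM in PSB-KD107, with a log2 fold change of -0.60 and an SE of 0.18. Myh3 was at 18255, 17158 and 17968 CPM in vehicle and 12991, 14589 and 11842 CPM in PSB-KD107, with -0.44 and an SE of 0.17. Both were lower, as Myog was, with all PSB-KD107 libraries below all vehicle libraries. The fusion genes Mymx (Gm7325 in the table), with -0.70, and Mymk (Tmem8c), with -0.37, were the others that were lower, and Rapsn, which clusters acetylcholine receptors, was higher with 0.31. DESeq2 called Mymx, Actc1, Mymk and Myh3 at adjusted p-values of 0.0412, 0.0223, 0.00377 and 0.00472. These were its 4 calls among the 36, where it called 3.56% of all genes in either direction and 0.982% as lower. With single libraries left out, Mymx kept an unadjusted edgeR p of 0.0123 to 0.0311 and Bhlhe41 of 0.00541 to 0.0381, whereas each of the other list genes named as lower or higher at the unadjusted threshold missed it without at least 1 library.

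**Figure D4:**
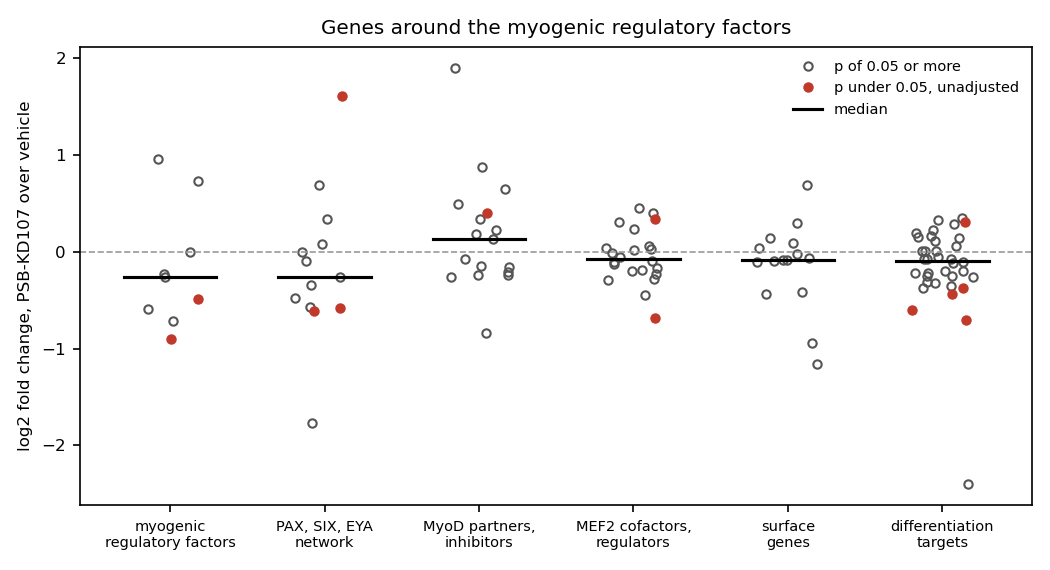
Log2 fold change of PSB-KD107 over vehicle (edgeR) for each tested gene of the 9 factors and 5 lists, with a line at the median and filled points for an unadjusted p under 0.05. The medians lie between -0.26 and 0.13, and each list spreads to both sides of 0.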

How the data were processed

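RNA from the cultured mdx cells, 3 libraries per group, was aligned by the authors with STAR to mm10. The counting program, annotation and use of strand are not given in the sources used here. The authors deposited raw counts per gene, not normalized, for 47069 genes. The libraries numbered 4 have no matching number in the sample records and were assigned by group alone.

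Names, exonic lengths and coordinates came from GENCODE M21 (GRCm38). The whole table was tested with edgeR 4.0.16 (R 4.3.3; filterByExpr, TMM, quasi-likelihood test, no covariate), adjusted by Benjamini-Hochberg over 14165 genes. CPM used TMM-normalized totals, and SE is the absolute log2 fold change over the square root of F. Permutation tests were exact and two-sided, on log2 CPM with a prior count of 2 or on log2 ratios of counts plus 0.5. Alternatives were DESeq2 1.42.0, limma 3.58.1 (voom), RLE factors, other filters, replicate blocks and each library left out. DESeq2 with libraries left out was added after seeing the data. Tables and figures used Python 3.11.15. Scripts were tested on simulated data.

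The 9 factors and the gene lists were chosen with earlier results of these data known. Genes named beyond the 9 factors were the 5 with the smallest p per list, the highest gene of each list of other cells, and the 4 most correlated with Pax7 and with Myog (mean of at least 1 CPM). Some genes covered by this rule are not reported here. Other genes were named after their values were seen: Itga7, Calcr, Chodl, Mef2b, Ly6a, the other-cell markers at 0 counts, and those in the closing observations.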

Additional observations from a re-analysis of the deposited data

How the results depend on the processing

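Of 126 estimates of the 9 factors under 14 alternatives, 115 kept their direction and their side of an adjusted p of 0.05, 8 passed it and 3 changed sign. The number of genes called by edgeR, 0 in the report with 1331 at an unadjusted p under 0.05, was 0 with RLE factors, the FPKM filter, limma-voom and each library left out, 8 with no filter and 482 with DESeq2. Pax7 kept an unadjusted p under 0.05 in all 14 alternatives (adjusted p 0.000195 to 0.857) and Myog in 10. With single libraries left out, 1 to 4 factors were lower at an unadjusted p under 0.05 (1 without vehicle library 2 or vehicle library 4, and 4 without PSB-KD107 library 2) and 0 to 1 were higher (1, Myf6, without PSB-KD107 library 1). Of the list genes, 3 to 13 were lower, against 7 in the report, and 1 to 6 were higher, against 4. On libraries 1 and 2 alone with no block, 1 factor was lower and 1 list gene was higher. The share of all genes past the unadjusted threshold is not given for these alternatives. The counts are therefore not read as results about the factors or the lists. Mef2c changed sign without vehicle library 1 (0.33, DESeq2 0.32) and without PSB-KD107 library 2 (0.25 in both), with a range of -0.33 to 0.33 in edgeR and -0.34 to 0.32 in DESeq2. Itgb1 changed sign on libraries 1 and 2 (-0.05) and without PSB-KD107 library 4, with a range of -7.8e-05 to 0.44. The difference in the ratio of Myog to Myod1 ranged from -0.13 to 0.35, that of Myog to Pax7 from 0.16 to 0.61 and that of Myod1 to Myf5 from -1.91 to -0.64. The causes were not tested.

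Libraries with the same number deviated together for number 1 (r = 0.632 across genes) and number 2 (0.503) but not for number 4 (-0.13). The 6 pairs with unlike numbers averaged -0.17, but deviations cancel within a group, so this average largely follows from the same-number values. Vehicle library 4 correlated best with PSB-KD107 library 2 (0.638), but the same cancelling enters this value. The correlations therefore cannot decide whether equal numbers mark a pair. Which libraries share a mouse is not stated in the sources used here, and the main fit used no pairing. A replicate block over all 6 libraries called 0 genes at an adjusted p under 0.05. At an unadjusted p under 0.05, it had 4 factors (Pax7, Myog, Myod1 and Six4) and 14 list genes lower. A replicate block on the 4 libraries numbered 1 and 2 called 2582 of 14165 genes, 7 of the 9 factors among them. At an unadjusted p under 0.05, this block had 7 factors lower and 1 higher, and 46 list genes lower and 9 higher. For both blocks, the unadjusted counts again stand without the share of all genes. The block on libraries 1 and 2 gave log2 fold changes of -0.05 for Myf6 and -0.05 for Itgb1. Even the lowest of the 9 factors had 140 counts or more in each library. Myf5, Myf6 and Mef2c spread widely between libraries, and what sets this spread was not tested.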

Other observations

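The widest spread among the differentiation genes was that of Cdkn1c, a cell cycle inhibitor, singled out after its values were seen. It was at 232.4, 2478 and 3889 CPM in vehicle libraries 1, 2 and 4, and at 89.4, 1086 and 72.2 CPM in PSB-KD107. Library 1 was low in both groups, and PSB-KD107 library 4 lay far below vehicle library 4. Pax3, the paralog of Pax7, was at 2.07, 2.78 and 2.70 CPM in vehicle and at 2.33, 2.76 and 0.303 CPM in PSB-KD107, again with a low value in PSB-KD107 library 4. The groups overlapped for both genes.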
